A study of Mus musculus with 24 samples.

Results

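The acute phase plasma proteins examined here are Saa1, Saa2, Saa3, Saa4, Orm1, Orm2, Hp, Hpx, Apcs and Lbp. They were found on the array through the RefSeq accession of each probe. All 10 genes were present, each with 1 probe, among 22911 gene symbols and 56605 probes. Total RNA was taken from the liver, the lung, the kidney or the white adipose tissue, called WAT, of male C57BL/6J mice aged 10 weeks (young) or 90 weeks (aged). Each tissue and age held 3 mice, none of them with a transgene, a deletion or a treatment in the labels, and the aged livers carry the numbers 1, 2 and 4. Each sample was hybridised to an Agilent array in 1 colour, giving 24 arrays. Levels below are log2 of the processed signal relative to the 75th percentile of the array. A difference of 1 therefore means a doubling, and a level below 0 is still a measured signal. Levels were not compared between genes because each probe has its own brightness.

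The acute phase response is the change in plasma protein output that follows infection, injury or inflammation. Interleukin-6, interleukin-1 and tumour necrosis factor act on hepatocytes, where STAT3, C/EBP and NF-kB factors raise transcription of the acute phase genes. The serum amyloid A proteins (Saa1, Saa2, Saa3, Saa4) are apolipoproteins of high-density lipoprotein. Saa1 and Saa2 are the inducible liver forms, Saa3 is made largely outside the liver by macrophages and adipocytes, and Saa4 is the constitutive form. Orm1 and Orm2 encode orosomucoids, which are carriers of small lipophilic molecules. Hp encodes haptoglobin, which binds free haemoglobin, and Hpx encodes hemopexin, which binds free haem. Apcs encodes serum amyloid P, the main pentraxin of the acute phase in mice, and Lbp encodes the protein that passes bacterial lipopolysaccharide to CD14.

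The 250 bases upstream of the RefSeq start site were available for 7 of the 10 genes (RefSeq, assembly GRCm38.p6, 5′ to 3′ on the strand of the gene). The Saa genes lie together on chromosome 7. The windows of the 3 inducible Saa genes and of Orm2 are printed because these are among the genes with results on age below. No window was available for Orm1, Hp or Lbp, which also have such results. Capitals mark matches to TTNNGNAA, a pattern of C/EBP sites, on either strand.
Saa1, chr7:46742981-46743230, minus strand: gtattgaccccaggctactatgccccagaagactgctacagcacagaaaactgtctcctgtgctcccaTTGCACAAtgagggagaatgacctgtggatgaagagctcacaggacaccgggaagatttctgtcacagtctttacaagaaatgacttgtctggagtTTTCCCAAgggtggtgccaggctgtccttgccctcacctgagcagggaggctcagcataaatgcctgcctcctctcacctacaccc
Saa2, chr7:46751583-46751832, plus strand: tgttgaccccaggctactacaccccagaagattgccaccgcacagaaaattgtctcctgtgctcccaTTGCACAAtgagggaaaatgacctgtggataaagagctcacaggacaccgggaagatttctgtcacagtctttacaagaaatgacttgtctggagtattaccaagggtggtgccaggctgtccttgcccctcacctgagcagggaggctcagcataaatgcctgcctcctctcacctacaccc
Saa3, chr7:46715677-46715926, minus strand: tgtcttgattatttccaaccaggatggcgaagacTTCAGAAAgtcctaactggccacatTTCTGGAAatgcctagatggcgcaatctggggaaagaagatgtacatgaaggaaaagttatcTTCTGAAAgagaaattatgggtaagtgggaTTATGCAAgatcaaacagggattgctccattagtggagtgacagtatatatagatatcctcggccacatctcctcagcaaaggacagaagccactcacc
Orm2, chr4:63362199-63362448, plus strand: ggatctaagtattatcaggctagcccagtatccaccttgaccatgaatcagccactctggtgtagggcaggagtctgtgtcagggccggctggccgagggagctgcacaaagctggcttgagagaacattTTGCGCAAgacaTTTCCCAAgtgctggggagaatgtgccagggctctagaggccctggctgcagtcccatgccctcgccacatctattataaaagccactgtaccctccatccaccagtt
The Saa1 and Saa2 windows were identical at 238 of 251 aligned columns (94.8%), against 52.2% for Saa1 and Saa3. The pattern TTNNGNAA matched at 2 places in Saa1, 1 in Saa2, 4 in Saa3 and 2 in Orm2, where TTGCGCAA reads the same on both strands. It was also found in Saa4 and Hpx but not in Apcs, and 36.8% of all 32851 promoter windows held it. Apcs was the only one of the 7 with a match to TTCNNNGAA, a pattern of STAT sites present in 7.02% of windows. A pattern of NF-kB sites, present in 1.41% of windows, matched none of the 7. A match describes letters in the window and not binding.

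On each array 58.6% to 71.1% of probes were well above background, and arrays of a group correlated at 0.942 to 0.995. The 6 arrays of a tissue shared a slide and each tissue had its own, so tissue and slide cannot be told apart, while both ages of a tissue were on the same slide. The summed linear level of 12 hepatocyte markers was 4305 to 7497 in liver and at most 649 in any other tissue. Lung epithelium, kidney tubule and adipocyte markers were likewise highest in the labelled tissue. The sum of 6 adipocyte markers was, however, 67.0 to 115 in young lungs and 5.90 to 17.9 in aged lungs. Its part in the lung values was not tested. The libraries labelled as aged lung 1, aged liver 2, aged lung 2 and aged WAT 3 stood apart in marker genes, as given with the results they touch. Nothing in the labels says how the mice were sampled, and p-values measure the spread between these samples. Nor do the labels say whether samples of the same number from different tissues came from the same mouse. Comparisons between tissues took all arrays as independent. In whole tissue, fewer cells of a type and less RNA per cell cannot be told apart.

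The first comparison asked where these genes were expressed in young mice. All 10 genes were higher in liver than in the mean of lung, kidney and WAT (limma, adjusted p at most 0.000363). The background is wide, since 41.6% of all genes tested were higher in liver in the same way. Here and below, the genes tested include array targets without a gene symbol (34151 entries in this comparison). The gap was widest for Hpx at 12.67 ± 0.80 (log2 difference ± SE, 6498-fold), followed by Saa4 at 10.41 ± 0.57 (1360-fold) and Saa2 at 10.14 ± 0.99 (1126-fold). It was narrowest for Lbp, at 2.53 ± 0.27 (5.79-fold), and Saa3, at 3.70 ± 0.78, which rests in part on a young kidney signal that was not well above background. Hepatocytes are the known main source of most of these proteins.

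**Figure D1:**
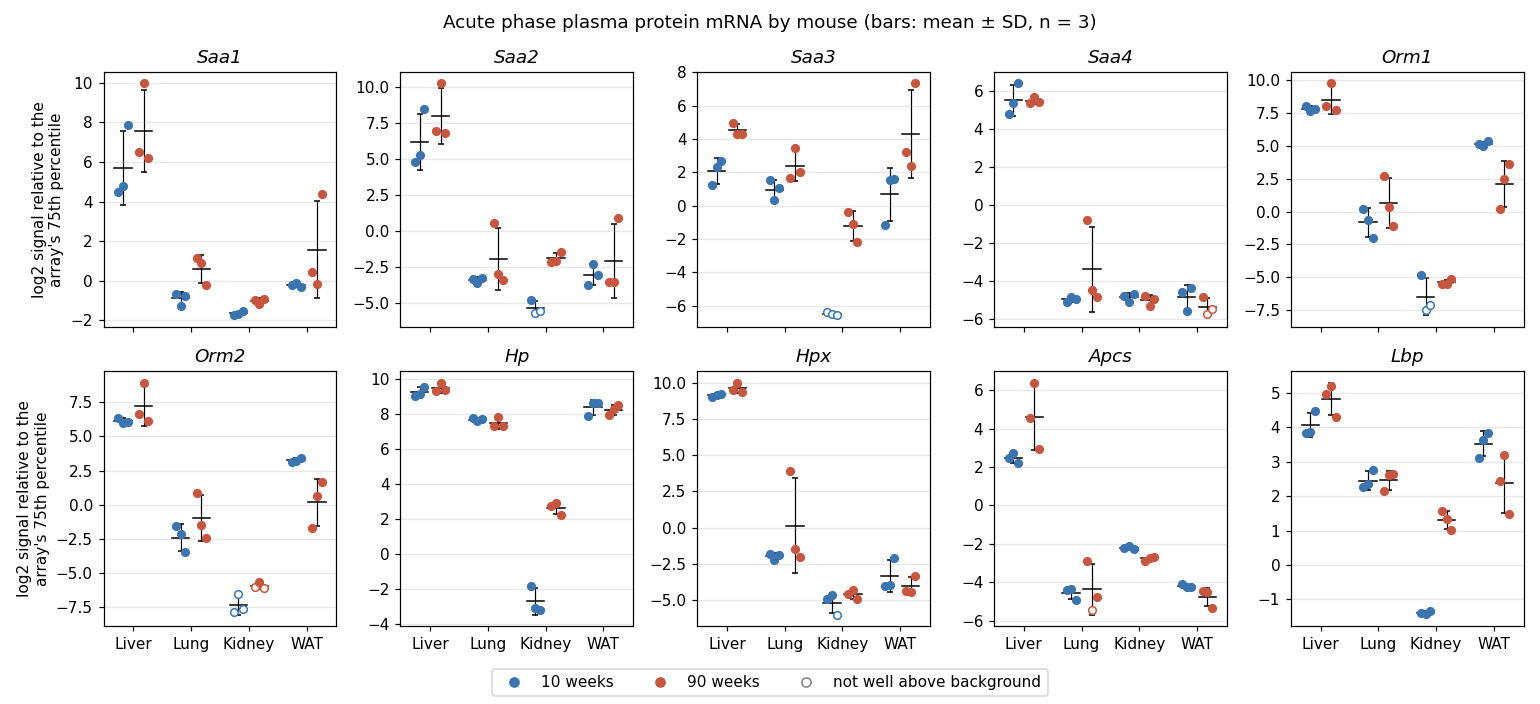
Level of each gene in each of the 24 samples (log2 signal relative to the 75th percentile of the array, y axis), by tissue and age (x axis). Points are mice, black bars show the mean and SD of 3 mice, and open points were not well above background. Every liver sample lay above all samples of the other tissues for each gene except Saa3. The margin was wide for Hpx and Saa4, whereas Hp and Lbp in lung and WAT came close to the liver, as did Saa1 in aged WAT 3.

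The order of the other tissues differed from gene to gene. Over the 6 pairs of tissues and 10 genes, 43 of 60 differences passed the test, against a wide background. Of all genes tested, 72.4% differed between liver and lung, 54.8% between liver and kidney, 66.5% between liver and WAT, 62.7% between lung and kidney, 52.4% between lung and WAT and 55% between kidney and WAT. Haptoglobin was high in 3 tissues. The Hp level was 9.04, 9.20 and 9.59 in young livers, 7.91, 8.68 and 8.65 in young WAT and 7.77, 7.64 and 7.72 in young lungs. In young kidneys it was -1.82, -3.08 and -3.18, far below every other tissue. Liver exceeded WAT by 0.86 ± 0.31 (adjusted p = 0.0207). WAT and lung did not differ beyond their spread (0.71 ± 0.31, adjusted p = 0.0626), and lung exceeded kidney by 10.40 ± 0.31 (adjusted p = 5.5e-15).

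Lbp followed a similar order. Its level was 3.85, 3.88 and 4.47 in young livers, 3.11, 3.64 and 3.83 in young WAT, and 2.26, 2.35 and 2.76 in young lungs. Young kidneys were lowest at -1.39, -1.43 and -1.32. The difference between liver and WAT was within the spread (0.54 ± 0.33, adjusted p = 0.162), and WAT exceeded lung (adjusted p = 0.0114). The orosomucoid genes were the only members for which all 3 neighbouring tissues differed, in the order liver, WAT, lung and kidney. The part of the adipocyte transcripts of young lungs in their lung levels was not tested. Orm1 was 8.03, 7.61 and 7.75 in young livers and 5.09, 5.00 and 5.31 in young WAT. Orm2 was 6.37, 6.01 and 6.07 in young livers and 3.14, 3.18 and 3.43 in young WAT. Young WAT thus held 15.8% of the liver signal for Orm1, 13.4% for Orm2 and 0.0211% for Hpx. Orm2 was not well above background in young kidneys, so liver exceeded kidney by at least 3071-fold.

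Saa3 differed from its relatives. Its level overlapped between young liver (1.24, 2.29 and 2.70), lung (1.52, 0.32 and 1.03) and WAT (-1.15, 1.55 and 1.62), and no pair of these tissues differed beyond the spread. In young kidneys Saa3 was not well above background in any mouse. The liver signal was at least 183-fold higher, the lung signal at least 84.2-fold and the WAT signal at least 69.2-fold. For Saa1, Saa2, Saa4 and Hpx, liver was above every other tissue, and neighbouring tissues below it did not differ beyond their spread. Hpx was, however, higher in lung than in kidney (3.23 ± 0.98, adjusted p = 0.00781). Apcs was second highest in kidney (-2.23, -2.13 and -2.26), above WAT and lung.

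The second comparison set aged against young mice within each tissue (limma, Benjamini-Hochberg over all genes tested in the tissue). In the kidney, the haptoglobin gene Hp, the serum amyloid A genes Saa1, Saa2 and Saa3, and Lbp rose. Of 9 genes tested, these 5 rose, Apcs fell and Saa4, Orm1 and Hpx did not pass. Among all genes tested in the kidney, 20.6% rose and 42.6% fell (63.1% in all). Of the tested members 5 were higher and 1 was lower without overlap between the ages, where 23.1% and 47.6% of all kidney genes were. These counts include Saa3, which entered the test only through the aged mice and so had to differ. The median change of the 9 tested members was 1.09, against -0.23 over all genes. That median is the value of Orm1, which did not pass and was well above background in 1 of 3 young kidneys. With normexp background correction the change of Orm1 was -0.08, so the median leans on a dim signal.

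**Figure D2:**
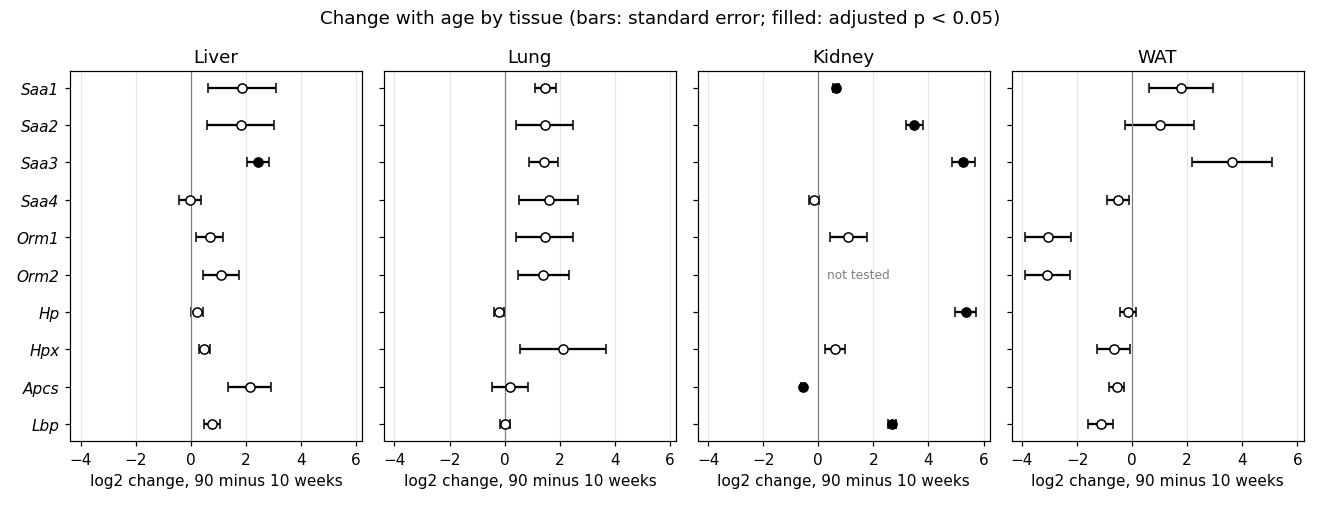
Change of each gene with age in each tissue (log2, 90 minus 10 weeks, x axis), with the standard error as the bar and filled points for an adjusted p below 0.05. In the kidney 6 points are filled, in the liver only that of Saa3, and in the lung and WAT none.

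Hp in the kidney went from -1.82, -3.08 and -3.18 in young mice to 2.77, 2.93 and 2.26 in aged mice. This was a rise of 5.35 ± 0.40 (log2 ± SE, 40.7-fold, adjusted p = 0.000193). Every aged kidney lay above every young one, but all of them stayed below the Hp level of any liver, lung or WAT sample. Saa3 was -0.40, -1.08 and -2.15 in aged kidneys, where it was well above background in all 3 mice, against none of the young. The aged signal was at least 18.7-fold higher (adjusted p = 0.00024). Saa3 entered this test only through the aged mice, so that it had to differ, and the p-value is no support of its own. With normexp background correction the log2 change of Saa3 was 2.67 and that of Saa2 was 1.75. Saa2 rose from -4.79, -5.72 and -5.60, with 1 of 3 young kidneys well above background, to -2.14, -2.07 and -1.45. Its change was 3.48 ± 0.30 (11.2-fold, adjusted p = 0.000318). Saa1 went from -1.71, -1.69 and -1.54 to -0.95, -1.16 and -0.91, a change of 0.64 ± 0.10 (1.56-fold, adjusted p = 0.00232). Transcripts of Saa1 and Saa2 are very similar, as are those of Orm1 and Orm2, and how far a probe reads its neighbour was not tested.

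Lbp rose from -1.39, -1.43 and -1.32 to 1.56, 1.33 and 1.03 in the kidney, a change of 2.69 ± 0.14 (6.46-fold, adjusted p = 7.07e-05). Neither age group overlapped the other. Apcs, by contrast, went from -2.23, -2.13 and -2.26 to -2.88, -2.72 and -2.69, a fall of 0.56 ± 0.09 (adjusted p = 0.00229). With spike-in scaling the median of all kidney genes moved from -0.23 to 0.17, and the share of called genes that rose moved from 32.6% to 69.4%. Relative to that median, Apcs was at -0.32 and Saa1 at 0.87. These relative values are the same under either scaling by construction, because each scaling shifts all genes of an array alike. The fall of Apcs no longer passed with spike-in scaling (-0.15, adjusted p = 0.467). In a joint fit of all 24 arrays, which pools the spread over tissues, Apcs (adjusted p = 0.504) and Saa1 (adjusted p = 0.656) did not pass.

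The other members were dim in the kidney. Saa4 changed by -0.16 ± 0.19 (adjusted p = 0.493) and Hpx by 0.61 ± 0.37 (adjusted p = 0.190). Orm1 changed by 1.09 ± 0.67 (adjusted p = 0.195), with young kidney 1 at -4.84 and the other young kidneys at -7.44 and -7.11. Without that mouse the change was 1.90 (adjusted p = 0.00139). The other young kidneys were not well above background for Orm1, so this p-value is no support of its own. With normexp background correction the change of Orm1 was -0.08. Orm2 was well above background in 1 of 6 kidneys and was not tested. Cell type markers moved in the same samples. The summed level of 6 macrophage markers was 61.8 to 94.4 in aged and 19.7 to 22.8 in young kidneys, and that of 6 B and plasma cell markers 48.7 to 82.1 against 0.614 to 0.778. The tubule and podocyte sum was 518 to 806 in aged and 1136 to 1368 in young kidneys. The 12 hepatocyte markers summed to 159 to 309 in aged and 459 to 564 in young kidneys, and Alb, the albumin gene, was lower in all aged kidneys (-1.46, -1.39 and -1.28) than in the young (-0.03, -0.05 and -0.0036). Other sums were also higher in aged kidneys, at 3.63 to 10.8 against 2.30 to 3.06 for 7 neutrophil markers and at 3.97 to 4.53 against 0.331 to 0.381 for 4 mesothelium markers. The sum of 6 adipocyte markers was 1.72 to 16.3 in aged and 0.597 to 2.40 in young kidneys. The part of other cell types in the kidney changes was not tested.

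In the liver, Saa3 rose and no other member passed the test. Saa3 was 1.24, 2.29 and 2.70 in young livers and 4.95, 4.31 and 4.30 in aged livers, without overlap. The rise was 2.44 ± 0.39 (5.43-fold, adjusted p = 0.0084), and of all genes tested in the liver 10.5% rose and 17% fell (27.5% in all). It passed with any single mouse left out. It did not pass in the joint fit (adjusted p = 0.0542), with the replicate block (adjusted p = 0.0573) or by the Student t-test (adjusted p = 0.0549). The replicate block in liver rests on mice 1 and 2 of each age, because young liver 3 and aged liver 4 have no partner. The macrophage sum was 178 to 202 in aged and 43.6 to 56.4 in young livers, and its part in this rise was not tested.

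The hepatic Saa1 and Saa2 levels ranged more widely among mice of the same age than the means of the ages differed. Saa1 was 4.48, 4.77 and 7.87 in young livers and 6.52, 9.97 and 6.23 in aged livers. Saa2 was 4.83, 5.28 and 8.45 in young livers and 6.96, 10.26 and 6.79 in aged livers. Young liver 3 and aged liver 2 were the highest of their groups for both genes. The changes were 1.87 ± 1.23 (adjusted p = 0.277) and 1.82 ± 1.22 (adjusted p = 0.286). Without aged liver 2 they were 0.67 and 0.69, and without young liver 3 they were 2.95 and 2.95, none of which passed. Saa4 was also highest in young liver 3 (6.41, against 4.78 and 5.36 in the other young livers), and the aged livers lay between at 5.37, 5.70 and 5.43.

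**Figure D3:**
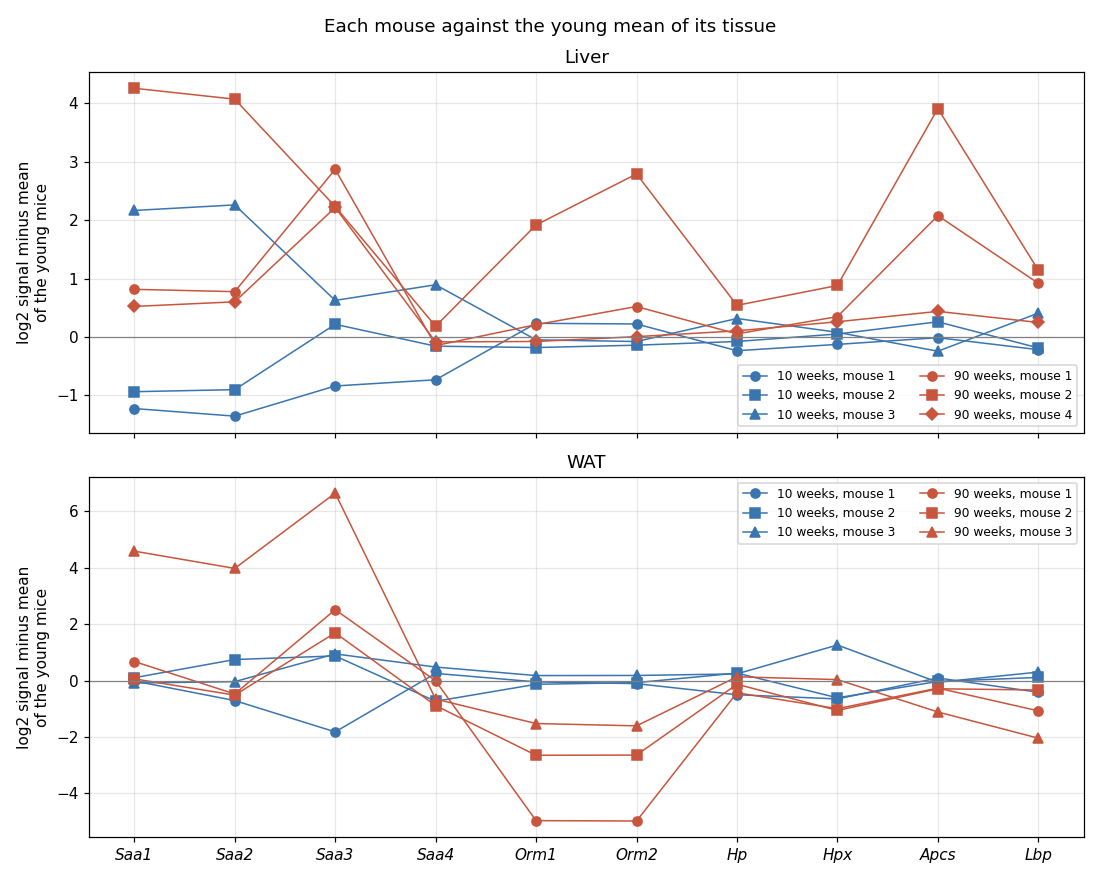
Each mouse against the mean of the young mice of its tissue (log2 difference, y axis) for the 10 genes (x axis), in liver and WAT. Lines join the values of a mouse, blue for 10 and red for 90 weeks. Aged liver 2 was highest for Saa1, Saa2, Orm1, Orm2 and Apcs, and young liver 3 was the highest young liver for all 4 Saa genes.

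Aged liver 2 was high across most of the set. Orm1 was 9.71 there, against 8.01 and 7.72 in the other aged livers and 7.61 to 8.03 in young livers. Orm2 was 8.94, against 6.67 and 6.15 in aged and 6.01 to 6.37 in young livers. Apcs was 6.39, against 4.56 and 2.92 in aged and 2.23 to 2.74 in young livers. The summed level of 7 neutrophil markers in this library was 1400, against 27.6 and 19.1 in the other aged livers and 4.33 to 9.52 in the young. Apcs and Hpx did not overlap between ages, nor did Saa3. These 3 members were higher with age and 0 were lower without overlap, where 16.8% and 33.1% of all liver genes were. Their changes of 2.14 ± 0.78 (adjusted p = 0.0777) and 0.50 ± 0.21 (adjusted p = 0.110) missed the threshold, as did Lbp at 0.77 ± 0.29 (adjusted p = 0.0852). Without aged liver 2, the changes were 1.26 for Apcs (adjusted p = 0.105) and 0.58 for Lbp (adjusted p = 0.199). Without aged liver 4 both passed, with an adjusted p of 0.0163 for Apcs and 0.0348 for Lbp. Apcs also passed in the joint fit (adjusted p = 0.0126) and with spike-in scaling (adjusted p = 0.014). Hp, already at 9.04 to 9.59 in young livers, was 9.33, 9.81 and 9.38 in aged livers, a change of 0.23 ± 0.22 (adjusted p = 0.442).

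In the lung, no member passed the test. Without adjustment, limma gave 2 members at p below 0.05, and the Student t-test gave 1 (and 0 after adjustment). After adjustment 2.72% of all genes rose and 2.89% fell (5.61% in all), and the share without adjustment was not counted. Saa1 was -0.66, -1.25 and -0.75 in young lungs and 1.13, 0.89 and -0.23 in aged lungs, a change of 1.49 ± 0.38 (adjusted p = 0.0796) without overlap. Saa1 passed when aged lung 3 was left out (1.90, adjusted p = 0.0286). That fit keeps aged lung 1, which had the highest Saa1 and carried hepatocyte transcripts. Without aged lung 1 Saa1 did not pass. Saa3 was 1.52, 0.32 and 1.03 in young lungs and 1.67, 3.44 and 2.03 in aged lungs, again without overlap (1.42 ± 0.53, adjusted p = 0.158). In all, 2 members did not overlap and were higher with age, and 0 were lower, where 11.6% and 24.2% of all lung genes were. The highest Saa3 value was in aged lung 2, whose neutrophil sum was 1356, against 157 and 300 in the other aged lungs. Hp (7.32, 7.88 and 7.33 in aged lungs) and Lbp (2.15, 2.61 and 2.64) changed by -0.20 ± 0.17 and 0.02 ± 0.20.

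Aged lung 1 carried hepatocyte transcripts. In it 10 of 12 hepatocyte markers were higher than in every other lung, the exceptions being Cyp2e1 and Pck1, and the markers summed to 255, against 8.91 to 27.0 in the other lungs. Hpx was 3.89 in this library and -1.46 and -2.05 in the other aged lungs. Saa4 was -0.80, against -4.45 and -4.87, and Saa2 was 0.55, against -2.99 and -3.43. The excess over the other aged lungs was 1.79% of the aged liver signal for Hpx, 1.25% for Orm1, 1.18% for Saa4, 0.707% for Orm2, 0.278% for Saa2 and 0.215% for Saa1. For the hepatocyte markers it ran from 0.225% to 21.2%, with a median of 1.52%. Hp, Lbp and Saa3 were not higher in this library than in the other aged lungs.

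**Figure D4:**
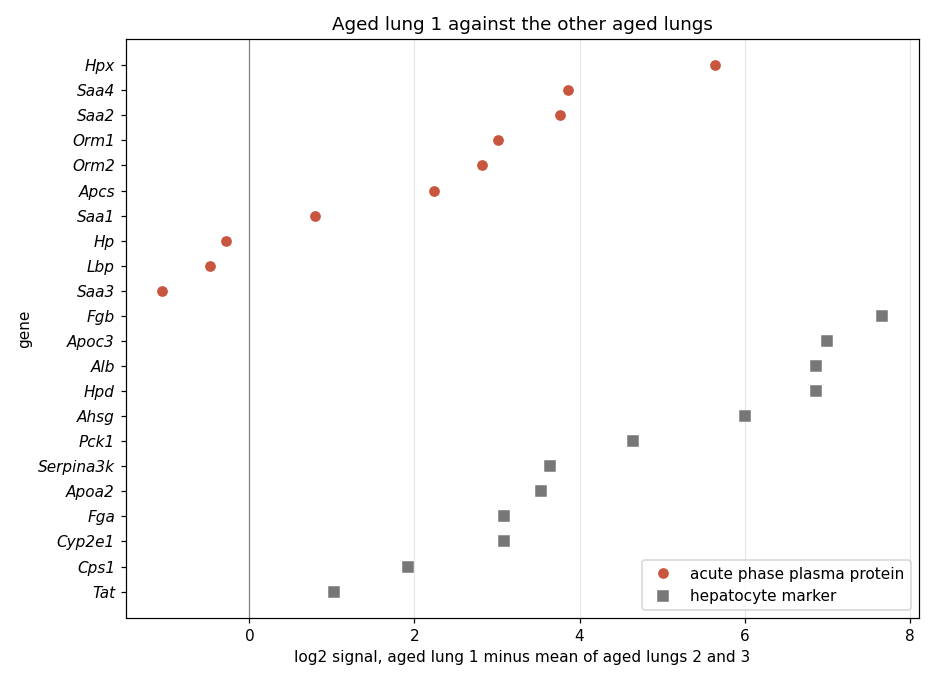
Signal in aged lung 1 minus the mean of aged lungs 2 and 3 (log2, x axis) for the 10 acute phase genes (red circles) and the 12 hepatocyte markers (grey squares), y axis. All hepatocyte markers and 7 of the 10 genes lay above 0, whereas Hp, Lbp and Saa3 lay below it.

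Without aged lung 1 the median change of the members in the lung was 0.28, against 1.44 with it and -0.06 over all genes without it. The change of Hpx went from 2.12 to 0.24, that of Saa4 from 1.60 to 0.31 and that of Saa2 from 1.46 to 0.21. Orm1 went from 1.46 to 0.46 and Orm2 from 1.41 to 0.47, while Apcs went from 0.21 to -0.53. Saa1 went from 1.49 to 1.22 (adjusted p = 0.131), whereas Saa3 went up from 1.42 to 1.78 (adjusted p = 0.126). None of the members passed the test without this library either.

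In WAT, the orosomucoid genes were lower and Saa3 was higher in every aged mouse than in every young one, but no member passed the test within the tissue. Without adjustment, limma gave 1 member higher and 3 lower at p below 0.05, and the Student t-test 0 higher and 2 lower. After adjustment 2.01% of all WAT genes rose and 0.579% fell (2.59% in all), and the share without adjustment was not counted. Orm1 was 5.09, 5.00 and 5.31 in young WAT and 0.17, 2.49 and 3.61 in aged WAT, a change of -3.05 ± 0.84 (adjusted p = 0.128). Orm2 was 3.14, 3.18 and 3.43 in young WAT and -1.73, 0.60 and 1.64 in aged WAT, a change of -3.08 ± 0.82 (adjusted p = 0.121). The young mice lay within a narrow range for both genes, and the aged mice were spread widely in the same order. Orm1, Orm2 and Apcs were 3 members lower without overlap, where 15% of all WAT genes were, and Saa3 was the 1 member higher, where 13.7% were.

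Saa3 was -1.15, 1.55 and 1.62 in young WAT and 3.19, 2.37 and 7.33 in aged WAT (3.62 ± 1.45, adjusted p = 0.250). Aged WAT 3, the highest, was also highest for Saa1 (4.38, against 0.47 and -0.15 in the other aged mice) and Saa2 (0.91, against -3.54 and -3.58). Its neutrophil sum was 878, against 7.09 and 75.1 in the other aged WAT samples, and 3.78 to 94.3 in the young. Without it the change was 2.10 for Saa3 (adjusted p = 0.345), 0.37 for Saa1 and -0.50 for Saa2. Lbp was 3.11, 3.64 and 3.83 in young and 2.45, 3.19 and 1.48 in aged WAT (-1.15 ± 0.46, adjusted p = 0.249). Hp held at 7.98, 8.29 and 8.55 in aged WAT (-0.14 ± 0.28, adjusted p = 0.815).

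In the joint fit of all 24 arrays, 4 members passed in WAT. The share of all genes that changed with age in a tissue by this fit was not counted, so this count has no background beside it. Saa3 was higher (adjusted p = 0.0126), and Orm1 (adjusted p = 0.0246), Orm2 (adjusted p = 0.016) and Lbp (adjusted p = 0.0213) were lower. Adipocyte markers summed to 937 to 1576 in aged and 1135 to 1651 in young WAT. Macrophage markers summed to 221 to 482 in aged and 40.0 to 124 in young WAT, and the part of either cell type was not tested. Of the hepatocyte markers, Fgb was well above background in 3 young and 0 aged WAT samples, and Alb was 1.57 to 3.09 in young and -1.79 to 0.26 in aged WAT. The young WAT signal of the 12 hepatocyte markers ran from 0.0234% of the young liver signal for Fgb to 32.9% for Pck1, which was 6.80 to 7.52 in young and 6.94 to 7.91 in aged WAT. Their part in the Orm1 and Orm2 values was not tested.

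Whether the change with age differed between tissues was tested directly by the interaction of tissue and age in the joint fit. The test was passed by 4 members, namely Hp (adjusted p = 3.69e-07), Lbp (adjusted p = 0.000128), Orm2 (adjusted p = 0.0154) and Orm1 (adjusted p = 0.0318), where 31.2% of all genes passed. For pairs of tissues, the share of all genes whose change with age differed was 12.5% for liver and lung, 8.64% for liver and kidney, 14.7% for liver and WAT, 18.8% for lung and kidney, 2.89% for lung and WAT and 20.5% for kidney and WAT. The difference in the change of Hp was -5.11 for liver minus kidney, -5.54 for lung minus kidney and 5.49 for kidney minus WAT (adjusted p at most 1.21e-06). For Lbp it was -1.92 for liver minus kidney (adjusted p = 0.0141), -2.68 for lung minus kidney (adjusted p = 0.00083), 3.84 for kidney minus WAT (adjusted p = 4.39e-05) and 1.92 for liver minus WAT (adjusted p = 0.0115). The change of Orm2 in WAT was below that in liver by 4.18 (adjusted p = 0.0255), and below that in lung by 4.49 (adjusted p = 0.0495). Without aged lung 1 the difference from lung was 3.55 and did not pass (adjusted p = 0.110). A difference of Orm2 from its kidney change is not given, because Orm2 was well above background in 1 of 6 kidneys. Its interaction test includes that kidney signal. Orm1 differed only between WAT and kidney (4.14, adjusted p = 0.029). It was well above background in 1 of 3 young kidneys, and its kidney change was -0.08 with normexp, so this difference leans on a dim signal. Without aged WAT 1, Orm1 (adjusted p = 0.108) and Orm2 (adjusted p = 0.0529) did not pass, and Orm1 also missed without young WAT 2 (adjusted p = 0.0526) or young WAT 3 (adjusted p = 0.0696). The interaction test was not passed by Saa1 (adjusted p = 0.870), Saa2 (adjusted p = 0.612), Saa3 (adjusted p = 0.125), Saa4 (adjusted p = 0.285), Hpx (adjusted p = 0.400) or Apcs (adjusted p = 0.060). The change of Apcs differed between liver and WAT as a pair (2.70, adjusted p = 0.0467), and its interaction test was passed with normexp (adjusted p = 0.0284) and with the replicate block (adjusted p = 0.0193). Apcs passed without aged lung 1 (adjusted p = 0.0211), aged lung 2 (adjusted p = 0.0462) or aged liver 4 (adjusted p = 0.0042), and Saa3 passed without aged WAT 3 (adjusted p = 0.0168).

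Genes around the acute phase were examined in 5 lists. The share of all genes called with age was counted only for the main fit within each tissue. List counts from the joint fit and the other alternatives therefore have no background beside them. In the kidney, 14 of 22 other acute phase proteins rose and 2 fell, where 20.6% of all kidney genes rose and 42.6% fell. Of the 14, Serpina3n, Il1rn and A2m were well above background in no young kidney and entered the test only through the aged mice. In the joint fit 9 of the list passed. Serpina3n, which encodes an antichymotrypsin-like protease inhibitor, was at least 34.4-fold higher, and Il1rn, the interleukin-1 receptor antagonist, at least 27.1-fold. Lcn2, a siderophore-binding lipocalin, rose by 5.82 ± 0.13 (adjusted p = 9.07e-06). Of 16 inducing cytokines and receptors, 12 rose and 2 fell. Osm (at least 6.14-fold) and Il6 (at least 5.38-fold) reached that level over background in 0 of 3 young kidneys and in 3 of 3 aged ones, so they too entered only through the aged mice, and Il1b rose by 3.19. Of 17 signal and transcription factors, 11 rose and 2 fell. Socs3, a feedback inhibitor induced by STAT3, rose by 3.81 and Cebpd, a C/EBP factor, by 2.11. Of 15 receptors and partners, 10 rose and 3 fell, with Fcgr1 (4.27), the haptoglobin-haemoglobin receptor Cd163 (3.53) and Tlr2 (3.47) changing most. Of 7 genes known to decrease in the acute phase, 4 rose (Trf by 2.15, Igf1 by 1.96, Rbp4 by 1.37 and Gc by 0.74) and 2 fell (Alb and Ttr). Among the other lists, the genes that fell, named after their values were seen, were Pzp and Kng1 of the acute phase proteins, Tnf and Il22 of the cytokines (neither passed with spike-in scaling), and Cd36, Lrp2 and Cubn of the receptors. Lrp2 and Cubn encode endocytic receptors of the kidney tubule.

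**Figure D5:**
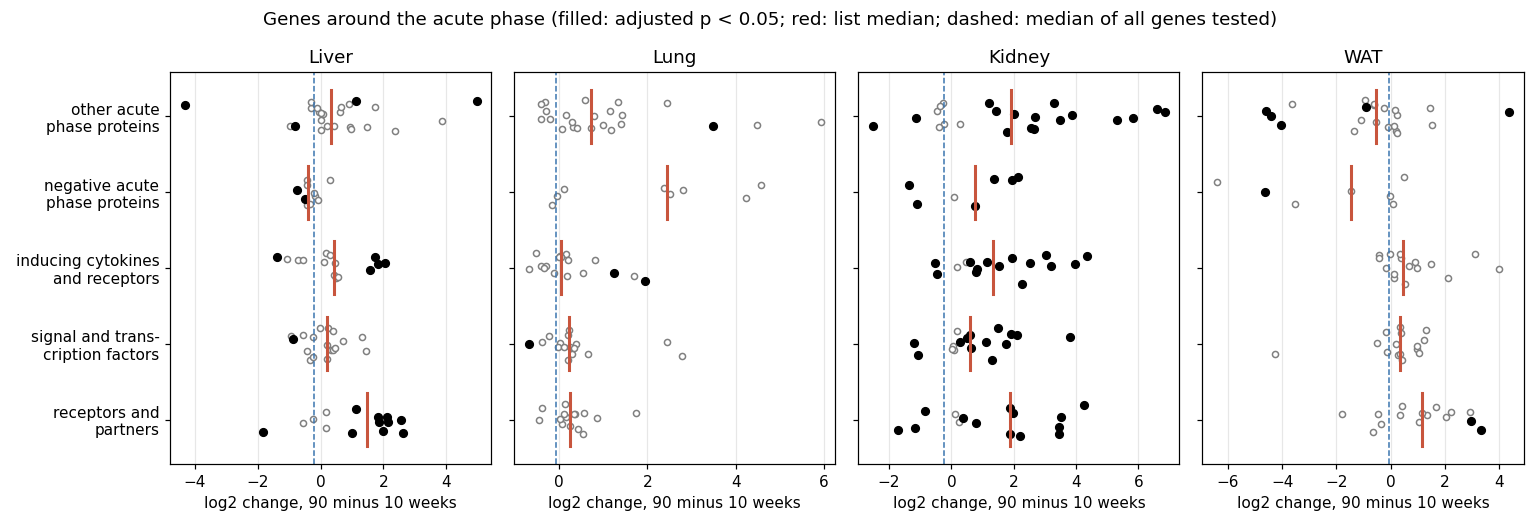
Change with age (log2, 90 minus 10 weeks, x axis) of the genes tested in 5 lists around the acute phase (y axis), by tissue. Filled points passed at an adjusted p below 0.05, red bars are list medians and dashed lines the median of all genes tested. Kidney medians lay between 0.58 and 1.90, all above the -0.23 of all kidney genes.

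In the liver, 9 of 14 receptors and partners rose and 1 fell, where 10.5% of all liver genes rose and 17% fell. The list median was 1.49 against -0.20 over all genes. Cd14, which takes lipopolysaccharide from Lbp, rose by 2.61 and Fpr2, a receptor for serum amyloid A, by 2.56. Of 15 cytokines and receptors, 4 rose and 1 fell, with Il10ra (2.04), Il1b (1.83), Il6 (1.72) and the oncostatin M receptor Osmr (1.58) among the first and Lifr the gene that fell. Osmr, Lifr, the receptor Lrp2 and the inhibitor Serpina3m, which also fell, were named after their values were seen. Of 24 other acute phase proteins, 2 rose and 2 fell. No gene of this list passed without young liver 1, without young liver 2 or by the Student t-test, 1 passed without aged liver 1, and 7 passed with normexp or in the joint fit. Lcn2 rose by 4.97 ± 1.14 (adjusted p = 0.023) and Itih3 by 1.12, whereas Hamp2, a hepcidin gene, fell by 4.32 ± 0.85 (adjusted p = 0.0147). Of 10 negative acute phase proteins 2 fell, Ttr by 0.75 and Rbp4 by 0.51. Creb3l3, a liver transcription factor, fell by 0.87 and was the 1 of 18 signal and transcription factors that passed. Of the genes called in liver, 38.1% were higher, against 69.3% with spike-in scaling and 28% with normexp background correction. With spike-in scaling 0 of the negative acute phase proteins passed.

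Few list genes passed in lung and WAT. In the lung, 1 of 23 other acute phase proteins rose, the fibrinogen gene Fgg (3.48, and 2.75 without aged lung 1, adjusted p = 0.0337). The negative acute phase list had a median of 2.44 in the lung and of 0.36 without aged lung 1, with 0 genes called either way by limma. Il1b (1.95) and Il10ra (1.25) rose, and neither passed without aged lung 1 (adjusted p = 0.0852 and 0.0858). Foxa2 fell by 0.68, the only signal or transcription factor of 16 to pass, and none of 15 receptors did. Other genes passed only without aged lung 1, and are named after their values were seen. They were Kng1 (2.54, adjusted p = 0.0184), Il22ra1 (1.04, adjusted p = 0.0272) and the receptor Fpr2 (2.26, adjusted p = 0.0368). In WAT, 1 of 21 other acute phase proteins rose (Il1rn, 4.37) and 4 fell (Fgg, Fgb, and, named after their values were seen, Pzp and Hamp2). The fibrinogen genes Fgg and Fgb were at least 6.54-fold and at least 6.46-fold lower, and Ttr, the 1 of 7 negative acute phase proteins that passed, at least 5.99-fold lower. These genes and Pzp were well above background in no aged WAT sample and entered the test only through the young mice. The receptor gene Fcgr1 (3.34) and Hmox1 (2.96), which encodes the haem-degrading enzyme downstream of Cd163, were the 2 of 15 receptors and partners that rose. With any single mouse left out 0 of this list passed, and in the joint fit 10 did, where the share of all genes was not counted. None of 16 cytokines and receptors and none of 15 signal factors passed in WAT by limma within the tissue, whereas the joint fit gave 5 and 2.

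Across the 24 arrays, the genes whose levels followed those of the members most closely were found by Pearson's r. The arrays form 4 tissues, so r mainly describes the order of tissues and is given without a test. Orm1 was followed most closely by Rbp4 (0.981), Serpina3m (0.974) and Serpina3c (0.974). Hp was followed by H2-M11 (0.963), Rnf144b (0.962) and Serpina3n (0.961), and Lbp by Serpina3n (0.961), Lrg1 (0.949) and Krtap11-1 (0.947). For Saa3 the closest were the class I histocompatibility genes H2-Q8 (0.958), H2-Q2 (0.954) and H2-D1 (0.954). For Saa1 they were Zbed6 (0.945), Rbm25 (0.941) and Sgo2a (0.940).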

How the data were processed

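The deposited intensity values were written by the authors with Agilent Feature Extraction 11.0.1.1 (per the file headers and the submitters' processing notes) as a background-subtracted processed signal for each of 62976 spots, not scaled between arrays. The header gives a mouse design on build mm9, while the methods name a human kit. Accessions were matched without version to RefSeq symbols of GRCm38.p6 (58.3% of probes), whose positions serve only the promoter windows.

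From these values, outlier spots (1841) were left out, log2 signals of the spots of a probe averaged, and arrays aligned at their 75th percentile. A probe was kept where at least 3 of the 6 arrays of the tissue had it well above background, with the brightest probe a gene. Probes without a symbol were grouped by their array name and tested as well. All genes tested were thus 27906 entries in liver, 30327 in lung, 31505 in kidney and 30063 in WAT. Ages were compared per tissue with limma 3.58.1 in R 4.3.3 (lmFit, eBayes; threshold 0.05), tissues and the interaction in a joint fit of 24 arrays. The fits were checked on simulated data. Where a group was not above background, folds are bounds against the lowest signal called above background. Signal over background and the number of arrays limit the precision.

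Named genes were all members, the 3 largest called changes of each list and tissue, genes standing beside a member as markers, and the 3 genes most like Saa1, Saa3, Orm1, Hp and Lbp. Members and lists were chosen with earlier results of these data known. Background correction, scaling, filter, probe rule, joint fit, replicate block, the Student t-test and leaving out each mouse were tried as alternatives. A slide block could not be fitted. A series-level text table was not used. Some results for the list of signal and transcription factors are not reported here.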

Additional observations from a re-analysis of the deposited data

Results flagged for a closer look

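The change with age differed between tissues, by the interaction test over all genes, for 4 of the 10 acute phase genes. Of all genes tested, 31.2% passed the same test, so the count of 4 is near that share. Hp (adjusted p = 3.69e-07) rose by 5.35 on the log2 scale in the kidney, with 3 of 3 aged mice above all young mice, and its changes in the other tissues lay between -0.20 and 0.23. Lbp (adjusted p = 0.000128) rose by 2.69 in the kidney and had a change of -1.15 in WAT. Orm2 (adjusted p = 0.0154) and Orm1 (adjusted p = 0.0318) had changes of -3.08 and -3.05 in WAT, with all 3 aged mice below the young. Neither passed within WAT. Their changes in the other tissues were positive, but none of those tested passed. With a mouse left out they fell as low as 0.46 (Orm1) and 0.47 (Orm2) in lung. In liver they fell as low as 0.066 (Orm1) and 0.26 (Orm2). The kidney change of Orm1 was -0.08 with normexp. Orm2 was well above background in 1 of 6 kidneys, so its kidney change is poorly measured.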

How the results depend on the processing

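All 10 members were higher in liver at 10 weeks under each of the 31 alternatives, and the count of pair differences called ran from 41 to 45. In the kidney, between 4 and 7 members were called over 16 alternatives. The liver count of 1 became 3 with normexp background correction, 2 with quantile normalization and 2 with spike-in scaling, 0 with the replicate block and 0 by the Student t-test, and ran from 1 to 3 with a mouse left out (3 without aged liver 4). In the lung it ran from 0 to 1 (1 without aged lung 3). In WAT it was 4 in the joint fit and 0 with any mouse left out. The share of all genes called with age under these alternatives was not counted. The interaction count of 4 ran from 2 (without aged WAT 1) to 5 with a mouse left out. Some changes that had not passed turned sign. Saa4 in liver was 0.0315 with normexp, 0.21 with quantile normalization, 0.0499 with spike-in scaling, 0.46 with the replicate block and -0.385 to 0.43 with a mouse left out. Kidney Orm1 (-0.0824) and Hpx (-0.0524) turned with normexp, and kidney Saa4 (0.25) and lung Lbp (-0.0617) with spike-in scaling. With a mouse left out, kidney Saa4 ran from -0.286 to 0.0014, lung Lbp from -0.0815 to 0.175, lung Apcs from -0.53 to 0.75, WAT Hp from -0.394 to 0.0016 and WAT Saa2 from -0.50 to 1.75. The cause was not tested. Within a tissue, young and aged mice of the same number deviated together weakly (r from -0.166 to 0.181), so the numbers were not taken as pairs. This comparison cannot show whether samples of the same number from different tissues came from the same mouse. The replicate block, tried as an alternative, paired young and aged mice of the same number within a tissue. In liver it rested on mice 1 and 2 of each age, because young liver 3 and aged liver 4 had no partner. With it, Saa3 in liver (2.87, adjusted p = 0.0573) did not pass. In the joint fit it joined samples of the same age and number across tissues, and the Orm1 interaction (adjusted p = 0.0554) was lost. Dim probes limit the kidney values of Orm1, Orm2, Saa2, Saa3 and Hpx.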
